A study of Mus musculus with 6 samples.

Results

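This account follows 40 mouse genes of mitosis and chromosome segregation in whole lungs of embryos that lack Dppa2. The genes were given as a list by name, and a probe belongs to a gene where the accession on the array maps to its symbol. Of the 40 genes, 39 had a probe and were tested, among 19861 features tested in all. Prc1, a bundler of midzone microtubules, matched no probe and was not analysed here.

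Lungs were taken at E18.5, close to birth, from embryos of an intercross of parents heterozygous at ECAT15-1, which is Dppa4, and ECAT15-2, which is Dppa2. The 3 knockout embryos (KO1 to KO3) were 15-1Flox/Flox and 15-2-/-, so the floxed ECAT15-1 allele came with the null ECAT15-2 allele in each of them. The 3 wild type embryos (WT1 to WT3) were 15-1+/+ and 15-2+/+. Per the labels, the line began from 129Sv embryonic stem cells and was mated to C57/BL6 and to mice carrying Cre or FLPe whose background was not known, and no label says which embryos shared a litter. RNA of 1 whole lung was hybridised to each Agilent 1-colour array, so fewer cells of a type and less RNA per cell cannot be told apart.

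Mitosis is driven by cyclin B and the kinase Cdk1, which with Plk1 and the Aurora kinases condense chromosomes, build the spindle and attach kinetochores to it. The spindle checkpoint holds the anaphase-promoting complex in check until every chromosome is attached, after which separase cuts cohesin and the cell divides. Most of these genes are transcribed in the later part of the cell cycle, through the MuvB complex with B-Myb and FoxM1. Their transcripts are therefore used as a readout of dividing cells, which in the fetal lung become fewer as the alveolar epithelium matures before birth.

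Between 63.3% and 68.8% of the 41174 probes on the knockout arrays and 66.1% to 66.6% on the wild type arrays lay well above background, and no spot was saturated. Levels are log2 intensities relative to the 75th percentile of each array. Dppa2 itself was read by a probe above background in both groups, with log2 levels of -4.88, -4.92 and -3.99 in knockout lungs and -3.16, -3.45 and -3.49 in the wild type lungs. Its difference did not pass (-1.23, adjusted p = 0.0616), and the position of this probe relative to the deletion was not known here, so the labels were not checked by it. WT1 and WT2 stood apart from the other embryos before any mitosis gene was considered. They had signal well above background from 4 of 4 Y-linked genes and from 0 of 4 Xist probes, whereas KO1, KO2, KO3 and WT3 had 0 of 4 Y-linked genes and 4 of 4 Xist probes. They also shared a number in the raw data name that the labels give, and lay on the same slide as KO3. KO1 and KO2 shared another slide and another number, and WT3 shared its number with KO3 and had a slide of its own. Sex and that number therefore cannot be told apart for WT1 and WT2. Genotype can be told apart from sex and from that number only through WT3.

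In these lungs the levels of the mitosis genes divided the embryos into WT1 and WT2 on the low side and the 3 knockouts with WT3 on the high side. In 39 of 39 genes both WT1 and WT2 lay below each of the other 4 embryos. The same was seen in 20.4% of all features. The genes were listed with earlier results of these data known. All were read in the same 2 lungs, so the 39 genes are not independent cases. A distance of over 0.5 on the log2 scale between the lowest of the 4 and the higher of WT1 and WT2 was found in 36 of the 39 genes and in 2.37% of all features, a comparison chosen after the values were seen. Relative to the mean of WT1 and WT2, the median over the 39 genes was 1.33 in KO1, 1.00 in KO2, 1.03 in KO3 and 1.09 in WT3, or 2.52-fold, 2.00-fold, 2.04-fold and 2.13-fold. The median over all features was between 0.00 and 0.03 in each of these 4 embryos. WT1 and WT2 themselves were close, with a median distance of 0.08 over the 39 genes.

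**Figure D1:**
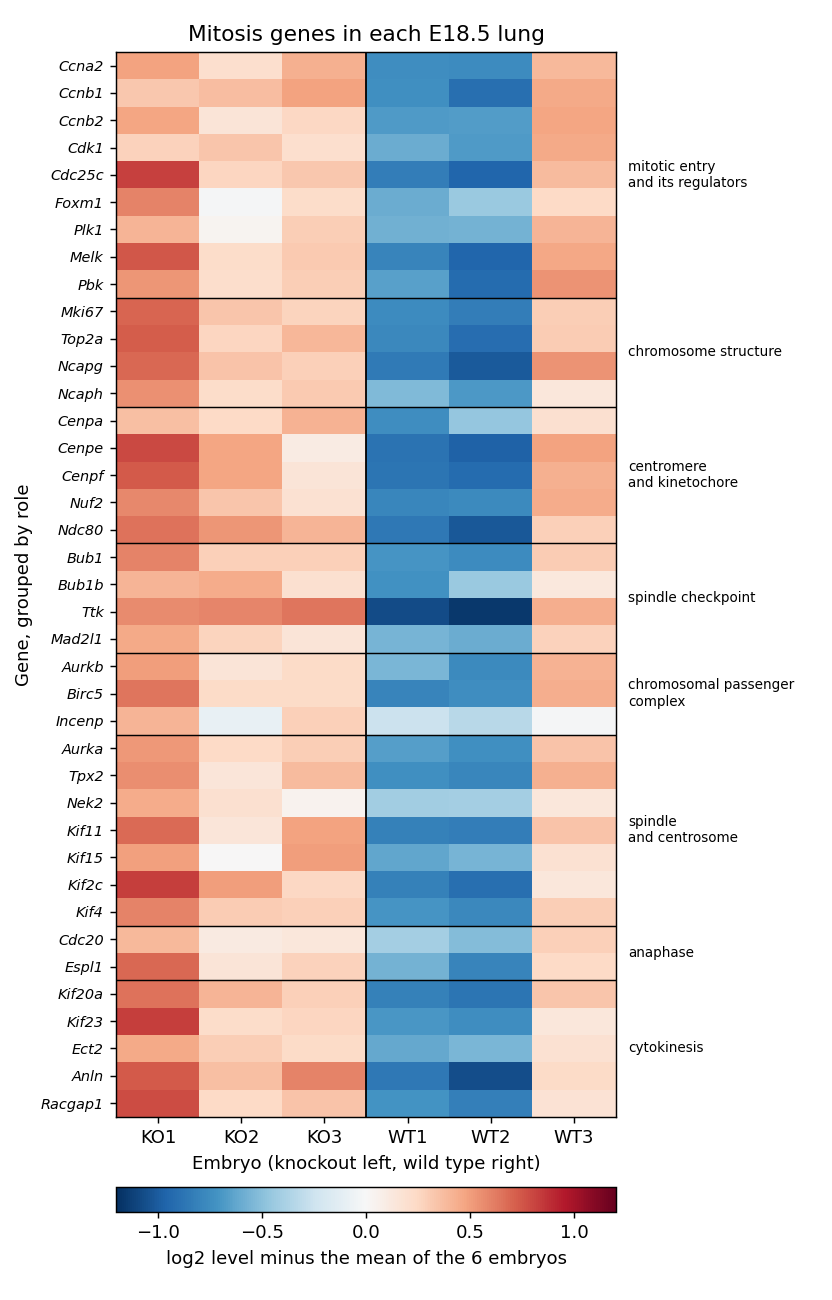
Level of each of the 39 measured mitosis genes (rows, grouped by role) in each lung (columns, knockouts left, wild types right). Colour gives the log2 level minus the gene's mean over the 6 embryos. WT1 and WT2 are below that mean in all 39 genes, and WT3 resembles the knockout columns in colour.

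Compared by genotype, all 39 genes had a positive knockout minus wild type difference, between 0.40 and 1.19 with a median of 0.74 (1.67-fold), against a median of 0.00 over all features, of which 9934 had a positive difference. In limma, 0 of the 39 passed at an adjusted p under 0.05 over all features (adjusted p from 0.0957 to 0.301), against 1.34% of all features. At an unadjusted p under 0.05 the count was 25 of 39, against 25.8% of all features. The groups did not overlap in 10 of the 39 genes, Ncaph, Cenpa, Ndc80, Bub1b, Ttk, Kif2c, Kif23, Ect2, Anln and Racgap1. All 10 were higher in the knockouts. Without overlap and higher in the knockouts were 16.5% of all features. Without overlap in either direction were 31.5% of all features, a larger share than the 25.6% of the 39 genes. WT3 lay within the range of the 3 knockouts in 26 genes, below it in 10 and above it in 3 (Ccnb2, Cdk1 and Pbk). Over all features WT3 lay within the knockout range in 43.3%.

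The promoters of these genes share 2 sequence features that the list did not use. The cell cycle genes homology region (CHR), with the core TTTGAA, is bound by the MuvB complex, and the CCAAT box is bound by the factor NF-Y. RefSeq promoters of GRCm38.p6, from 250 bases before to 50 after the start, were at hand for 31 of the 39 genes. On either strand, 22 of the 31 held TTTGAA, against 14.6% of the 11103 tested genes with a promoter and 17.9% of all 32851 promoters. CCAAT was found in 22 of 31, against 42.4% of tested genes and 37.4% of all promoters. Both were present in 18 of 31, against 5.85% of tested genes and 6.95% of all promoters. In 15 of the 31 genes TTTGAA began on the gene strand between 60 bases before and 50 after the start, against 2.40% of tested genes, a window chosen after the positions were seen. No match of TTTGAA overlapped one of CCAAT in these promoters. A match is a string of letters and does not show that a factor binds there. The 6 promoters below are shown because they hold both motifs, and they are those of highest mean level among the 2 genes of largest difference in each role. Ttk and Kif11 of the same set also hold both and are not shown. Outside that set, both are also held by Aurka, Bub1b, Ccnb2, Cdk1, Cenpa, Ect2, Kif23, Kif4, Mki67 and Plk1. The 6 sequences run 5′ to 3′ on the gene strand, with matches of both motifs, on either strand, in capitals. Cdc20 is at chr4:118437294-118437593 (minus strand), Ncapg at chr5:45669675-45669974 (plus), Cenpf at chr1:189688037-189688336 (minus), Top2a at chr11:99024140-99024439 (minus), Racgap1 at chr15:99651607-99651906 (minus) and Espl1 at chr15:102296043-102296342 (plus).
Cdc20: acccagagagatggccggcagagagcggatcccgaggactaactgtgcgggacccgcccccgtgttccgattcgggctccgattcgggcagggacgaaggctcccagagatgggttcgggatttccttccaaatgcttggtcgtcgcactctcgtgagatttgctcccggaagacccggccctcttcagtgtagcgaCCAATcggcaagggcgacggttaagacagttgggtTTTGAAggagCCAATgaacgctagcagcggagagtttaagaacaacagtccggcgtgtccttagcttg
Ncapg: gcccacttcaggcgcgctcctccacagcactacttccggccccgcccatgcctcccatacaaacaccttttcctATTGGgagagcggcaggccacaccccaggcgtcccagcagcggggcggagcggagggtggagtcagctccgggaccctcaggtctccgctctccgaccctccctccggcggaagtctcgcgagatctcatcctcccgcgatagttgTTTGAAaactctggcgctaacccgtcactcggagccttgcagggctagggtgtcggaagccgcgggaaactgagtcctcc
Cenpf: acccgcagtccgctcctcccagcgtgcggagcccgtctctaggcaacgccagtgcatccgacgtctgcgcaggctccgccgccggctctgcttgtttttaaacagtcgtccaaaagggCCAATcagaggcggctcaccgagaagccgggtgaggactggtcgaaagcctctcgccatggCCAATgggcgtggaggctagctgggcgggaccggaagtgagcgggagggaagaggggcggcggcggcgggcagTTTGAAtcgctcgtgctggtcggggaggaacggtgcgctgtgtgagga
Top2a: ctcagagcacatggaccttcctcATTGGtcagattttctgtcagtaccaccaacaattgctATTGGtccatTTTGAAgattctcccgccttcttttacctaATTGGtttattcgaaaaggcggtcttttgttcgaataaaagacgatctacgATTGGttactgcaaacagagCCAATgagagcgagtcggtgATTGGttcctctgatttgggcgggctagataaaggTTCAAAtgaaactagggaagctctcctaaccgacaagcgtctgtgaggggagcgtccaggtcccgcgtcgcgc
Racgap1: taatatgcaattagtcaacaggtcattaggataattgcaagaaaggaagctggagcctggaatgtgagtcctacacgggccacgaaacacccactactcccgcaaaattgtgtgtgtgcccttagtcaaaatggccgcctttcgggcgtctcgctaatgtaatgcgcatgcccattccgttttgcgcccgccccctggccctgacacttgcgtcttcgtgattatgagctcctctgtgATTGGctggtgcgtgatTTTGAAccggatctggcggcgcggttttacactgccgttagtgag
Espl1: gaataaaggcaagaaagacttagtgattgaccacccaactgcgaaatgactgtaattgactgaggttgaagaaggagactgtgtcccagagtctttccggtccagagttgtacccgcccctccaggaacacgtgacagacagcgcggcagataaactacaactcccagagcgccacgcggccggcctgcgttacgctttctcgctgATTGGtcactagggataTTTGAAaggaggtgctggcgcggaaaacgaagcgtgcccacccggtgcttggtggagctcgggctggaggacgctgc

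In Cdc20 a CHR core lies between 2 CCAAT boxes close to the start. Top2a holds NF-Y boxes on both strands upstream of its start, and in Racgap1, Espl1 and Ncapg the match of the CCAAT box is on the other strand, upstream of TTTGAA.

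**Figure D2:**
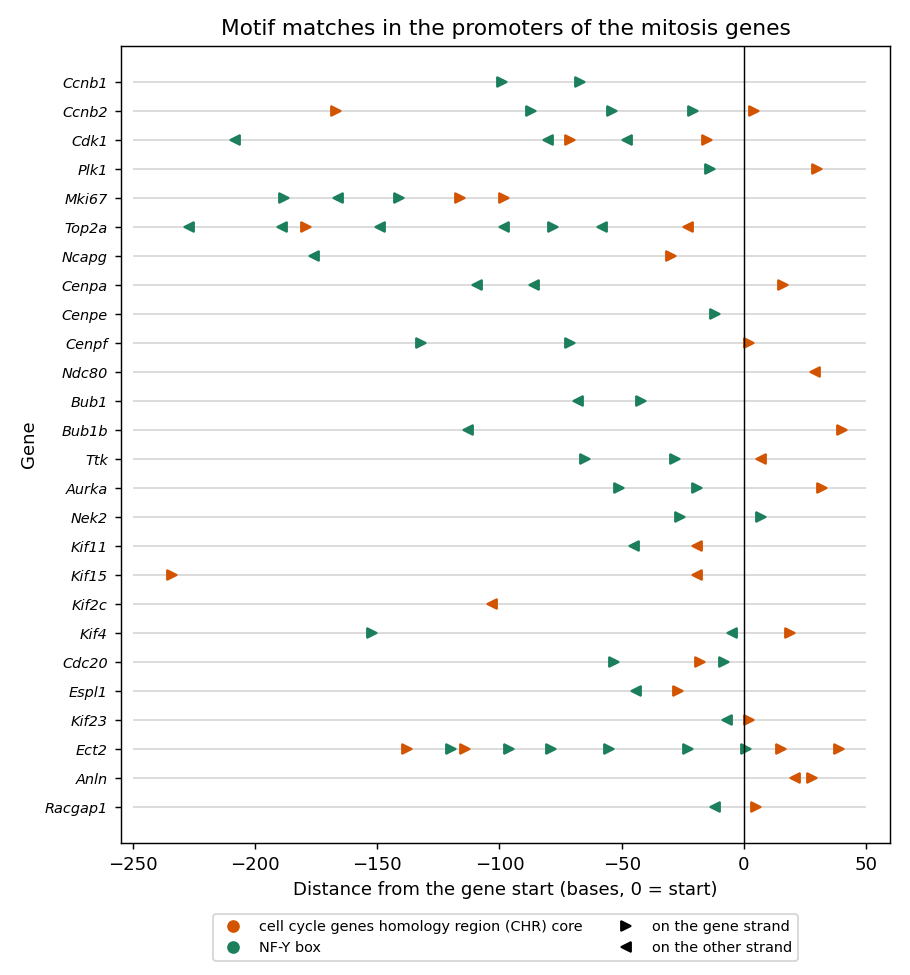
Matches of the CHR core and of the NF-Y box in the promoters of the 26 measured mitosis genes with at least 1 match. The x axis is the distance from the gene start in bases, each triangle marks the first base of a match and points right on the gene strand, and the promoters of both annotated Ect2 starts share a row.

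Genes of mitotic entry and its regulators comprised 9 members, with differences between 0.49 and 0.94. Cdc25c, the phosphatase that removes inhibitory phosphate from Cdk1, had levels of -1.68, -2.24 and -2.17 in KO1 to KO3, against -3.33, -3.45 and -2.11 in WT1 to WT3. WT3 lay inside the knockout range, and the difference of 0.94 (SE 0.36, n = 3 each) did not pass (adjusted p = 0.165). Melk, a kinase of dividing progenitor cells, was at 1.04, 0.52 and 0.61 in the knockouts and -0.50, -0.66 and 0.76 in the wild types. Its difference of 0.86 (SE 0.37) did not pass either (adjusted p = 0.201). The other members are the cyclins Ccna2 (0.74), Ccnb1 (0.79) and Ccnb2 (0.58), their kinase Cdk1 (0.54), the polo kinase Plk1 (0.49), the transcription factor Foxm1 (0.53) and the mitotic kinase Pbk (0.69). Cdk1 was at 1.42, 1.48 and 1.34 in the knockouts and 0.55, 0.47 and 1.60 in the wild types, so its highest level was in a wild type lung.

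Of the 4 genes of chromosome structure, Top2a, the topoisomerase that untangles sister chromatids, was at 0.36, -0.11 and 0.04 in the knockout lungs and -1.14, -1.27 and -0.06 in the wild type lungs. Group means were 0.10 ± 0.24 in knockouts and -0.82 ± 0.66 in wild types (SD, n = 3 each), a difference of 0.92 (SE 0.32, adjusted p = 0.137). WT3 lay between KO2 and KO3, which is where the larger wild type SD comes from. Ncapg, a subunit of condensin I, was at 1.79, 1.45 and 1.39 in the knockouts and 0.25, 0.10 and 1.64 in the wild types, a difference of 0.88 (SE 0.39, adjusted p = 0.211). Ncaph, another condensin I subunit, differed by 0.72. Mki67, which encodes the antigen Ki-67 at the surface of mitotic chromosomes, had levels of 4.12, 3.76 and 3.69 in knockouts and 2.66, 2.59 and 3.72 in wild types, and differed by 0.86 (SE 0.31, adjusted p = 0.144).

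At the centromere and kinetochore, 5 members had differences between 0.68 and 1.06. Ndc80, the outer kinetochore protein that grips microtubules, was at -0.85, -0.97 and -1.09 in the knockouts, against -2.36, -2.51 and -1.21 in the wild types. These groups did not overlap, but WT3 was 0.12 below KO3 and over 1 above the other wild types, and the difference of 1.06 (SE 0.33) did not pass (adjusted p = 0.112). Cenpf, a large protein of the outer kinetochore, was at 1.80, 1.54 and 1.22 in the knockouts and 0.18, 0.14 and 1.49 in the wild types, a difference of 0.92 (SE 0.37, adjusted p = 0.177). The kinetochore motor Cenpe differed by 0.92, Nuf2, the partner of Ndc80, by 0.73, and the centromeric histone Cenpa by 0.68.

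The largest difference among the 39 genes was that of Ttk, the kinase Mps1 that starts checkpoint signalling. It was at -3.33, -3.32 and -3.26 in the knockout lungs, against -4.97, -5.05 and -3.46 in the wild type lungs. The groups did not overlap, and the difference of 1.19 (SE 0.40, 2.28-fold) did not pass (adjusted p = 0.131). Bub1, a kinase of unattached kinetochores, was at 0.48, 0.16 and 0.17 in knockouts and -0.83, -0.87 and 0.18 in wild types (difference 0.78, SE 0.29, adjusted p = 0.154). A second Bub1 probe, assigned through another transcript accession, was nearly flat, at -2.53, -2.63 and -2.43 in knockouts and -2.45, -2.54 and -2.39 in wild types. The checkpoint proteins Bub1b (0.70) and Mad2l1 (0.59) complete the 4 genes of this role.

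In the chromosomal passenger complex, which corrects faulty attachments, Birc5, the subunit survivin, was at 3.89, 3.48 and 3.48 in the knockouts and 2.45, 2.51 and 3.68 in the wild types. Its difference of 0.74 (SE 0.33) did not pass (adjusted p = 0.214). Aurkb, the kinase of the complex, was at -0.72, -1.07 and -0.99 in knockouts and -1.77, -1.98 and -0.81 in wild types (0.59, SE 0.30, adjusted p = 0.257). Incenp, its scaffold, had the smallest difference of the 39 (0.40). It was at 3.09, 2.59 and 2.96 in the knockouts and 2.42, 2.35 and 2.66 in the wild types, and KO2 was 0.17 above WT1.

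For the spindle and centrosome, 7 members had differences between 0.46 and 1.06. Kif2c, a kinesin that takes apart microtubule ends, was at -1.52, -1.85 and -2.10 in the knockouts and -3.17, -3.25 and -2.22 in the wild types. The groups did not overlap, and its difference of 1.06 (SE 0.29, 2.08-fold) had the smallest adjusted p of the 39 genes (0.0957). Kif11, the kinesin Eg5 that pushes spindle poles apart, was at -1.01, -1.55 and -1.21 in knockouts and -2.51, -2.52 and -1.35 in wild types (0.87, SE 0.33, adjusted p = 0.158). Aurka, the centrosomal Aurora kinase, differed by 0.70, its activator Tpx2 by 0.72, the chromokinesin Kif4 by 0.79, the spindle kinesin Kif15 by 0.67 and the centrosome kinase Nek2 by 0.46.

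In both genes of anaphase WT1 and WT2 were again the lowest embryos. Espl1, the protease separase, was at -0.69, -1.22 and -1.10 in the knockouts and -1.95, -2.17 and -1.14 in the wild types (0.75, SE 0.28, adjusted p = 0.158). Cdc20, the activator of the anaphase-promoting complex, was at 3.59, 3.31 and 3.33 in the knockouts and 2.79, 2.67 and 3.48 in the wild types (0.43, SE 0.22, adjusted p = 0.269).

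Of the 5 measured cytokinesis genes, 4 had groups that did not overlap, against 16.5% of all features without overlap and higher in the knockouts. This was the largest share of any role. It was 2 of 4 for the spindle checkpoint, 2 of 5 for the centromere and kinetochore and 1 of 4 for chromosome structure. For the spindle and centrosome it was 1 of 7, and 0 for the other roles. The separation could be small, as in Ect2, at 1.00 in KO3 and 0.95 in WT3. Anln, the actin-binding protein anillin of the contractile ring, was at -1.26, -1.63 and -1.40 in knockout lungs and -2.85, -3.06 and -1.76 in wild type lungs, a difference of 1.13 (SE 0.33, 2.19-fold, adjusted p = 0.101). Racgap1, a subunit of centralspindlin, was at -0.06, -0.60 and -0.50 in the knockouts and -1.56, -1.67 and -0.67 in the wild types (0.92, SE 0.28, adjusted p = 0.113). In both genes WT3 was the lowest of the 4 high embryos. The centralspindlin motor Kif23 differed by 0.88, the RhoA exchange factor Ect2 by 0.65 and the midzone kinesin Kif20a by 0.90, and none passed.

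**Figure D3:**
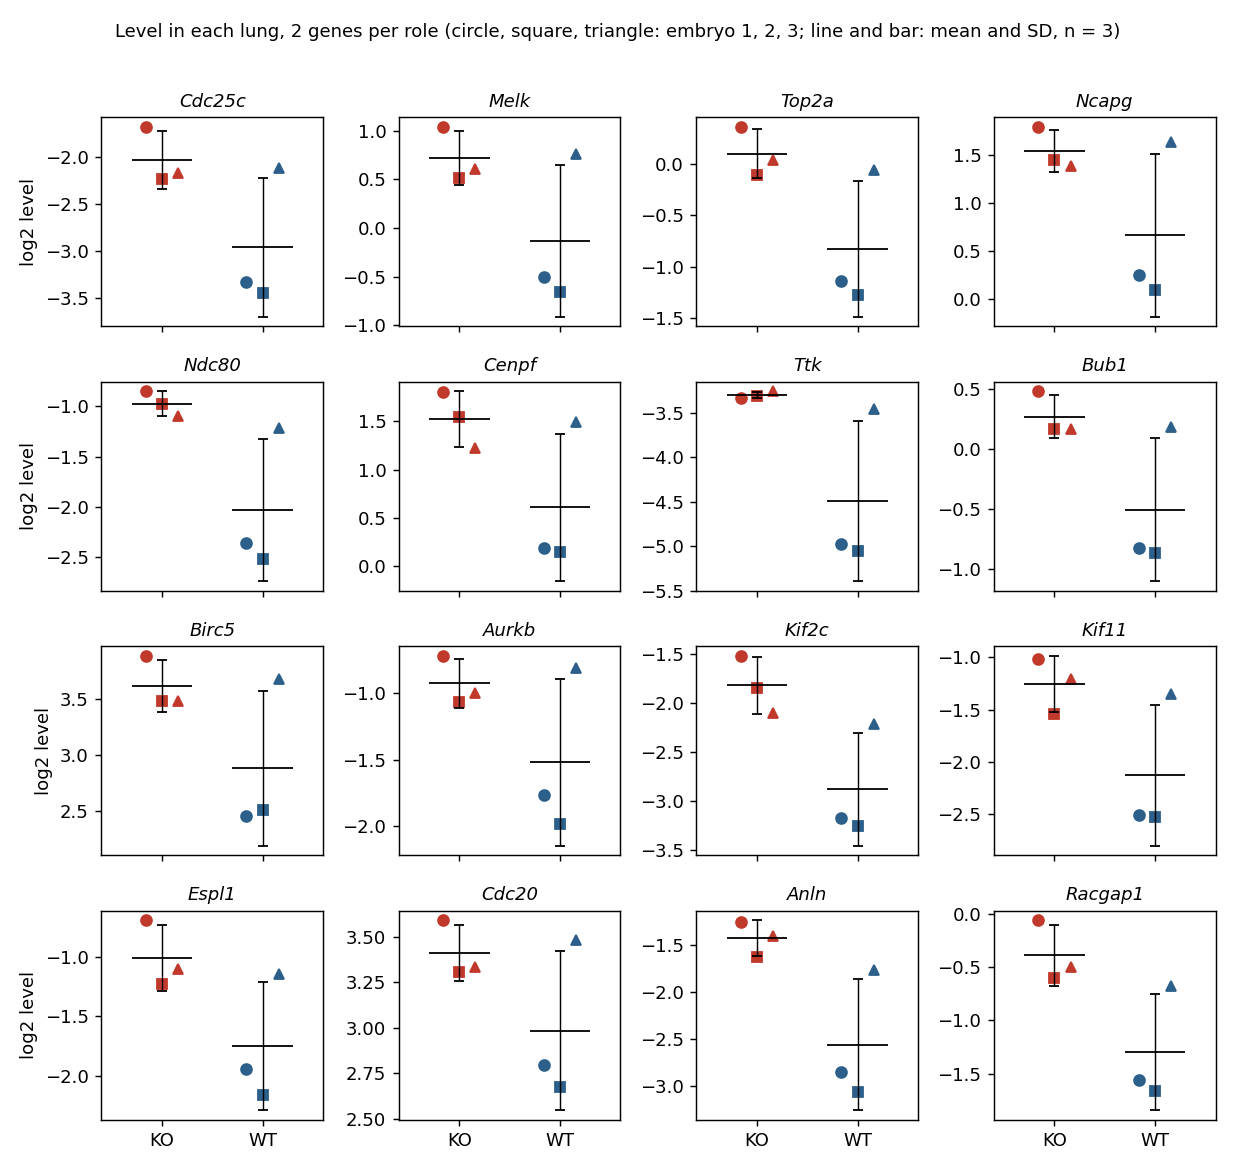
Log2 level (y axis, a separate range in each panel, 0 is the array's 75th percentile) in each knockout and wild type lung for 2 genes of each role. Points are embryos, lines and bars are the mean and SD of 3. In every panel WT1 and WT2 lie lowest and WT3 is near the knockouts.

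Among the 4 high embryos KO1 stood out, with the highest level of all 6 embryos in 31 of the 39 genes, against 4206 of all 19861 features. KO3 was highest in Ccnb1, Cenpa, Ttk and Kif15, WT3 in Ccnb2, Cdk1 and Pbk, and KO2 in Bub1b. The median range over these 4 embryos was 0.40, close to the median of 0.41 over all features. For the 39 genes the array held 57 probes, and the chosen probe, the one with the highest mean, was well above background on all 6 arrays for each gene. Of 18 further probes of 16 genes, 13 were well above background on all 6 arrays. In 12 of these 13 WT1 and WT2 were again the lowest embryos, with differences between 0.63 and 1.20, and the exception was the Bub1 probe above (-0.07). Another Ect2 probe, well above background on 4 arrays, had a difference of 1.46, against 0.65 at the chosen probe.

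The outcome of the genotype test turned on WT3. With WT3 left out, the median difference of the 39 genes was 1.13 and all 39 differences were positive. In limma, 36 of them were higher in the knockouts at an adjusted p under 0.05, against 6.53% of all features. The exceptions, higher without passing, were Foxm1 (adjusted p = 0.0593), Incenp (0.123) and Nek2 (0.052). Without WT3, Ttk rose by 1.71 (SE 0.11, adjusted p = 0.0105) and Mki67 by 1.23 (SE 0.16, adjusted p = 0.0186). Within the slide that holds both groups, where KO3 is set against WT1 and WT2, the median was 1.03 and 34 of 39 rose, against 4.42% of all features. This last fit rests on 1 knockout lung, which is assumed to vary like the wild types. Both comparisons use WT1 and WT2 as the wild type, the embryos with Y-linked signal, and no knockout had that signal or their number. In these fits genotype therefore cannot be told apart from sex or from the number in the raw data name.

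With a term for the arrays with Y-linked signal, the knockouts are in effect set against WT3. The median was then 0.09, the genes ranged from -0.19 to 0.40, 25 of 39 were positive, and 0 of 39 passed in limma (smallest adjusted p = 0.613) against 0.0856% of all features, and 0 had an unadjusted p under 0.05, against 9.38%. Between KO3 and WT3, which share a number in the labels, the median was -0.02, the range -0.38 to 0.36, and 17 of 39 were positive. Ndc80, for example, differed by 0.24 (95% confidence interval -0.16 to 0.64) with the term. The intervals of single genes are wide with 1 wild type lung, and these fits do not show that KO and WT3 lungs have the same level. KO3 lay on the same slide as WT1 and WT2 and exceeded their mean by a median of 1.03, and WT3 lay on another slide.

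**Figure D4:**
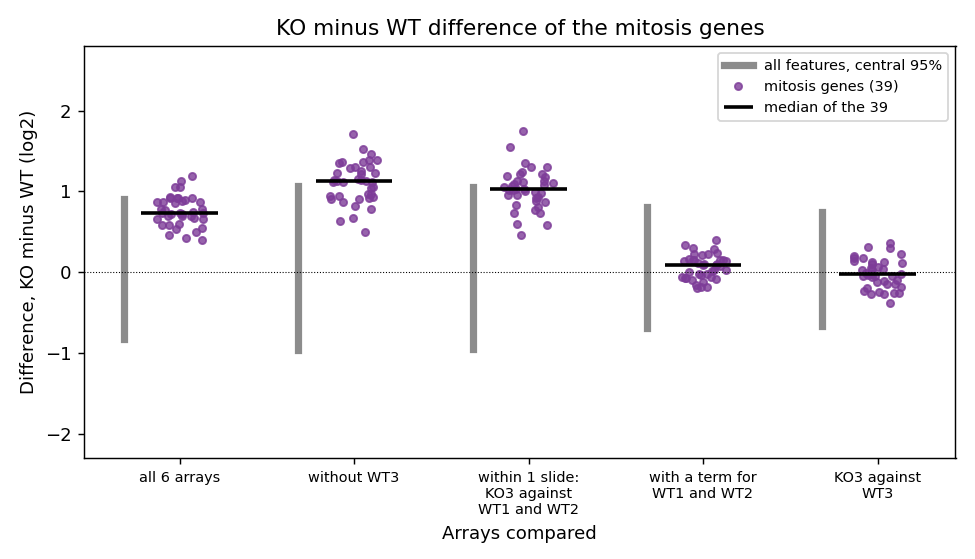
Knockout minus wild type difference on the log2 scale (y axis) of the 39 mitosis genes (points, line at their median) in 5 sets of arrays (x axis). Grey bars hold the central 95% of all features. The medians are 0.74, 1.13 and 1.03 where WT1 and WT2 enter as wild types, and 0.09 and -0.02 where WT3 alone is the wild type in effect.

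Other genes of cell division followed the same embryos to different degrees, and 0 genes of these lists passed in limma with all 6 arrays. At an unadjusted p under 0.05 there were 11 of 26 other kinetochore genes, 21 of 28 other spindle, motor and cytokinesis genes, 7 of 18 other condensin, cohesin and securin genes and 5 of 21 other regulators of mitotic entry, against 25.8% of all features, and the share of the entry regulators was close to that background. The median difference was 0.61 for the kinetochore genes and 0.72 for the spindle, motor and cytokinesis genes. WT1 and WT2 were the lowest embryos in 24 of 26 and 25 of 28 genes of these lists, in 15 of 18 of the condensin, cohesin and securin list and in 12 of 21 entry regulators, against 20.4% of all features. The smallest p-values belonged to Cenpi, a protein of the inner kinetochore (1.10, adjusted p = 0.0577), Knl1, the outer kinetochore platform for Bub1 (0.97), and Hjurp, the chaperone of Cenpa (0.50), and to Dlgap5 (1.07, adjusted p = 0.0600), Spag5 (0.96) and Aspm (1.36), which organise spindle microtubules. Aspm was at -1.25, -1.42 and -1.51 in the knockouts and -3.06, -3.21 and -1.99 in the wild types. In it WT3 was 0.47 below the lowest knockout, and the difference with the Y-linked term was 0.59. With that term the difference was 0.75 in Cenpi, 0.56 in Spag5, 0.55 in Dlgap5, 0.33 in Knl1 and 0.20 in Hjurp. These values rest in effect on WT3 as the only wild type lung.

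Condensin, cohesin and securin genes had a median difference of 0.31, with Esco2, the cohesin acetyltransferase of replicating chromosomes (1.19), Sgo2a, a protector of centromeric cohesin (0.85), and Ncapg2, of condensin II (0.79), at the smallest p. Among the other entry regulators (median 0.33) these were Gtse1, a microtubule-binding protein (0.78), Wee1, the kinase that inhibits Cdk1 (0.53), and Ccne2, a cyclin of the start of replication (0.87). The 27 measured DNA replication genes, which act in the preceding phase of the cycle, had a median difference of 0.34. WT1 and WT2 were lowest in 19 of the 27, against 20.4% of all features. KO1 was highest at a median of 0.55 above the mean of the 6 embryos, and KO3 (-0.03) and KO2 (0.01) were near that mean. The 3 genes of smallest p were Cdc45 (0.60), Pola1 (0.55) and Pole (0.61), of the replicative helicase and polymerases. An unadjusted p under 0.05 was found in 2 of the 27, a smaller share than the 25.8% of all features.

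Subunits and regulators of the anaphase-promoting complex, which is also used outside mitosis, had a median difference of 0.01 over 16 genes, 8 of them positive. WT1 and WT2 were the lowest embryos in 5 of the 16, Fbxo5 and Ube2c among them, against 20.4% of all features. Fbxo5, an inhibitor of the complex, was at 0.92, 0.72 and 0.52 in the knockouts and 0.01, -0.22 and 0.65 in the wild types (0.57). The subunit Anapc11 differed by -0.29 and Fzr1, its activator in late mitosis and G1, by -0.22. In the 8 tested genes of cyclin-dependent kinase inhibitors and other brakes on proliferation, 2 differences were positive and the median was -0.19. Cdkn1a, the inhibitor p21, was at -0.37, 0.17 and 0.03 in the knockouts and 0.52, 0.77 and 0.21 in the wild types, a difference of -0.56 (SE 0.20) that did not pass (adjusted p = 0.142). WT1 and WT2 had its highest levels. They were the highest embryos in 4 of the 8 genes, against 17.2% of all features, and the lowest in 2 of 8, against 20.4%. Cdkn2b differed by -0.43 and Cdkn1c by 0.16. With an unadjusted p under 0.05 were 2 of 16 and 2 of 8 genes of these lists, neither above the 25.8% of all features.

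**Figure D5:**
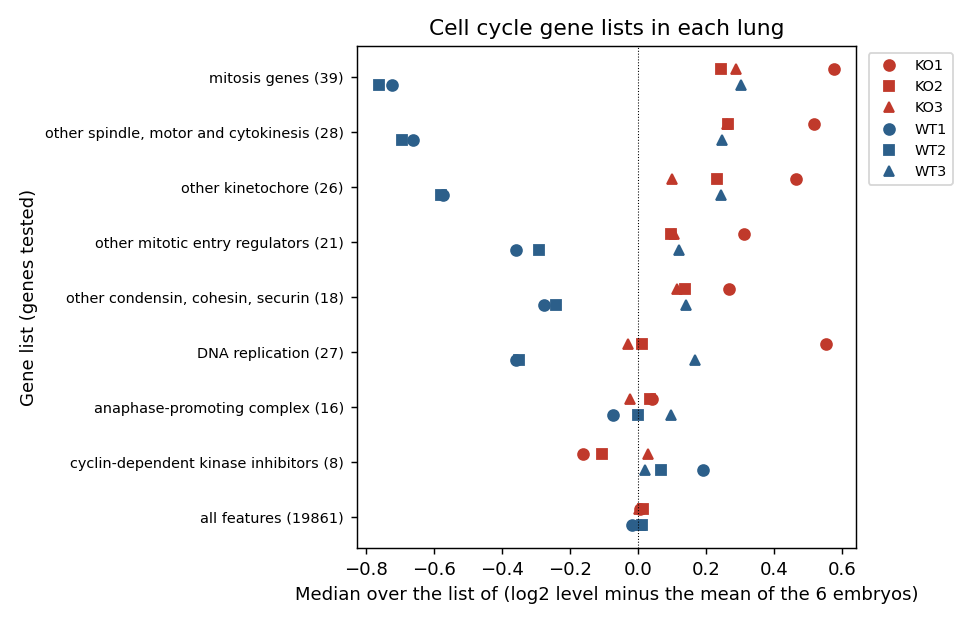
Median over each gene list (rows, with the number of genes tested) of the log2 level minus the mean of the 6 embryos (x axis), for each knockout (upper points) and wild type (lower points) embryo. WT1 and WT2 are at -0.72 and -0.76 for the mitosis genes, and near 0 for all features.

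Markers of cell types were read beside these values. The 10 lung epithelial and 6 endothelial markers were well above background on all 6 arrays, as were the 8 of mesenchyme and smooth muscle. Their summed levels, in multiples of each array's 75th percentile, were 338.4 to 376.8 in knockout and 351.2 to 444.5 in wild type lungs for the epithelium, 72.1 to 90.3 and 72.0 to 91.5 for the endothelium, and 185.9 to 220.3 and 200.8 to 214.8 for the mesenchyme. WT1 and WT2 were the highest embryos in 5 of 10 epithelial, 7 of 9 leukocyte, 4 of 10 heart muscle and 3 of 9 erythroid markers, against 17.2% of all features. They were the lowest in 3 of 6 endothelial, 2 of 8 mesenchyme and smooth muscle and 2 of 9 erythroid markers, against 20.4% of all features. The leukocyte sum was 18.4 to 22.4 in knockouts and 28.9 to 44.7 in wild types, with S100a8 and Mcpt4 lower in the knockouts (2 of 7 tested, Mcpt4 not well above background there) and the B cell gene Cd79a above background on 0 arrays. The erythroid sum was 27.3 to 36.7 in knockouts and 33.2 to 47.6 in wild types, and 1 of 9 tested genes, Hba-x, rose (2.41, adjusted p = 0.0472). The heart muscle sum was 36.9 to 50.6 in knockouts and 62.8 to 74.1 in wild types, with WT3 at 62.8. Of the 10 genes 6 were lower in the knockouts, and in each of these 6 WT3 was above every knockout. In Myh7 and Myh6, which did not pass, WT3 lay inside the knockout range. For the thymus, an organ of dividing lymphocytes near the lung, Rag1, Rag2, Cd4 and Cd8a were above background on 0 arrays. The sum was 1.82 to 2.63 in knockouts and 1.44 to 2.20 in wild types. Nearly all of that sum came from Cd1d1, the only 1 of 7 measured genes well above background on all 6 arrays. The sum is therefore not a measure of thymus tissue. Over all features 0.720% were called higher and 0.619% lower in the knockouts. The part of any of these cell types in the low mitosis levels of WT1 and WT2 was not tested.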

How the data were processed

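RNA of 6 whole lungs was measured on 1 array each. For every spot, the scanner files deposited by the authors hold an intensity from Agilent Feature Extraction 10.7.3.1, background-subtracted and detrended, per the file headers. The authors also deposited log2 values, which matched quantile-normalized intensities (median absolute difference at most 0.000789) centred on the wild type median, with column medians of 0.0108, -0.00698 and -0.000844 for KO1 to KO3 and 0 for each wild type. Their direction is that of the scanner values. Spots with outlier flags (77 to 110 per array) were left out, spots of a probe averaged, and the 75th percentile of each array subtracted from its log2 intensities. Probes well above background on all 3 arrays of a group were kept, and where a gene had several, the probe of highest mean level stood for it.

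Accessions gave a symbol to 26682 of 41174 probes through RefSeq genes of GRCm38.p6; the array design refers to mm9, so no probe coordinates are given. Knockout and wild type were set against each other by limma 3.58.1 under R 4.3.3 (two-sided lmFit and eBayes, without covariates), with p-values adjusted by Benjamini-Hochberg over all features, with a threshold of 0.05. The fit was tested on simulated data with independent noise for each gene and embryo. That simulation holds no shared split of WT1 and WT2 from the other embryos, so it does not test the fit under such a split.

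The members and lists were chosen with earlier results of these data known. Levels in each embryo are given for the 2 members of each role with the largest difference, and for some further members chosen after their values were seen (Mki67, Cdk1, Incenp). Other lists name the 3 genes of smallest p. Of these, Aspm, Fbxo5 and Cdkn1a have levels in each embryo and were chosen for that after their values were seen. The alternatives were other normalizations, filters and probe rules, slide, number and replicate blocks, a term for arrays with Y-linked signal, and leaving out arrays. The normexp alternative used the median signal, since the scanner files hold no mean signal. Nothing states litters, so p-values measure the spread between these embryos. Precision is limited by having 3 arrays a group.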

Additional observations from a re-analysis of the deposited data

How the results depend on the processing

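The count of features called was 266 with all arrays. It was 0 with normexp (1519 at an unadjusted p under 0.05), 28 with no background filter, 16 with the slide as a fixed block, 0 with a block for the number in the raw data name (1071 at an unadjusted p under 0.05), 17 with the term for arrays with Y-linked signal, 1478 within the slide that holds both groups, and 0 without WT1 and WT2, an alternative chosen after seeing the data (1371 at an unadjusted p under 0.05). With the replicate number as a block it was 47. Leaving out single arrays gave 34 to 1922 features and 0 to 36 mitosis genes, with 1922 and 36 without WT3, 34 without WT1, 56 without WT2, 59 without KO1, 76 without KO2 and 415 without KO3. Within the slide 34 mitosis genes passed. Quantile normalization called 58 features higher and 138 lower, the authors' values 59 and 137, and median scaling 81 and 240, against 143 and 123 in the values reported. Median scaling moved the median of all features to -0.14, normexp to 0.14 and no filter to 0.13. The median of the 39 genes ran from 0.56 to 1.13 over the alternatives other than 3. It was -0.024 with a block for the number in the raw data name and 0.087 both with the Y-linked term and without WT1 and WT2. The cause of these shifts was not tested beyond the arrays that enter each fit.

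Replicate numbers did not pair the embryos, with correlations of the deviations of -0.02, 0.04 and 0.03 for the 3 same-numbered pairs. The replicate block changed no call among the 39 genes. All 39 differences kept a positive sign under each alternative except these. In the fit blocked on the raw data number, 22 were below 0: Ccnb2 (-0.23), Cdk1 (-0.26), Cdc25c (-0.059), Foxm1 (-0.024), Plk1 (-0.11), Melk (-0.15), Pbk (-0.24), Mki67 (-0.031), Ncapg (-0.25), Cenpe (-0.38), Cenpf (-0.27), Nuf2 (-0.26), Bub1 (-0.017), Mad2l1 (-0.12), Aurkb (-0.19), Birc5 (-0.20), Aurka (-0.050), Tpx2 (-0.050), Nek2 (-0.093), Kif4 (-0.0030), Cdc20 (-0.15) and Kif20a (-0.042). Leaving out WT1 and WT2 gives, by construction, the differences of the Y-linked term. In the fit with that term, 14 were below 0: Ccna2 (-0.022), Ccnb1 (-0.062), Ccnb2 (-0.18), Cdk1 (-0.18), Plk1 (-0.16), Melk (-0.036), Pbk (-0.19), Ncapg (-0.096), Cenpe (-0.022), Nuf2 (-0.084), Aurkb (-0.12), Birc5 (-0.063), Tpx2 (-0.066) and Cdc20 (-0.073).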
